A study of Mus musculus with 9 samples.

Results

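Open chromatin around Klf2, Klf4 and Klf5 was read from ATAC-seq peak lists of mouse E14 embryonic stem cells of the TOT2N variant. ATAC-seq maps DNA that the Tn5 transposase can reach. The 3 genes were taken by name from the mm10 RefSeq annotation, out of 21887 protein-coding genes, together with every peak that reached within 100 kb of either gene end. Overlapping peaks of any library were joined into union regions, of which 56 of 116362 lay near these genes. The lines were TetR-MYBTA, with a stably integrated TetR-MYBTA construct, TetR, with a TetR construct, and WT, TOT2N cells labelled wild type. Each had 3 libraries. TetR is the DNA-binding repressor of the bacterial tetracycline operon, and the labels do not spell out MYBTA. Nothing in the labels says whether a line was 1 clone or whether its libraries came from separate cultures, so spread and p-values describe the libraries and may be technical.

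Klf2, Klf4 and Klf5 encode zinc-finger transcription factors that bind GC-rich and CACCC-type sites and have overlapping roles in the self-renewal of mouse embryonic stem cells. LIF acts through STAT3 on Klf4, while Klf2 is sustained when MEK and ERK signalling is low, and Klf5 is also needed in the early trophectoderm and inner cell mass. Klf4 is known to be driven in these cells by a group of distal enhancers downstream of the gene. An ATAC-seq peak marks an accessible site. It does not measure transcription of the gene.

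The promoters are shown first because the peaks nearest to Klf2 and Klf4 lie differently with respect to them. RefSeq windows from 250 bases before to 50 after the gene start (GRCm38.p6, the assembly of mm10) were given for these 2 of the 3 genes: chr8:72318812-72319111 on the plus strand for Klf2 and chr4:55532426-55532725 on the minus strand for Klf4. Capitals mark the KLF and SP core GGGNGNGG on either strand, with overlapping matches run together.
Klf2 promoter: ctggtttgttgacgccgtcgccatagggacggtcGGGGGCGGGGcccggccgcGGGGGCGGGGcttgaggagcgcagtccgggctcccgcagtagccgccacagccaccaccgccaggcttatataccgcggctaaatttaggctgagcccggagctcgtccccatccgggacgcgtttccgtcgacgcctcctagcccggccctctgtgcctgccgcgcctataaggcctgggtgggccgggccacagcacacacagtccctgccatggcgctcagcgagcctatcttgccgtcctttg
Klf4 promoter: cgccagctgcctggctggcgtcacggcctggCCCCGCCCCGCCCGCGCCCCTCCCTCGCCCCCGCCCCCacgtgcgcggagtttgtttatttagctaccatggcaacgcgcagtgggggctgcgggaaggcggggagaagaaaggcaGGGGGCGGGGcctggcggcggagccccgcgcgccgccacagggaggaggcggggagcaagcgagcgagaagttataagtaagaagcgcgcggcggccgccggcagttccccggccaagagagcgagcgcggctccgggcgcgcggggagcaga
The core occurred 4 times in the Klf2 window and 9 times in the Klf4 window, every match overlapping another, and at least once in 49.5% of all 32851 promoter windows of this length. The windows held 69.3% and 74.3% G and C, above the median of 52.7% over all windows. The MYB core AACNG was absent from the Klf2 window and occurred once in the Klf4 window, on the strand opposite to the printed one. It was held by 80.3% of all windows. The STAT core TTCNNNGAA was in neither, and in 8.3% of all windows. These are matches of letters in the windows and no evidence of binding.

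The libraries held 16.4 M to 23.0 M tags and 45136 to 70230 peaks, and 5.48 to 9.78% of tags lay in peaks. The lines separated on the share of tags in peaks, which was 7.57, 7.44 and 5.48% in TetR-MYBTA, below all other libraries, 9.78, 9.72 and 9.3% in TetR, above all others, and 7.84, 8.09 and 7.79% in WT. TetR-MYBTA replicate 3 also had the fewest peaks. List length moves the number of peaks at any gene: over the 20937 genes with a peak within 100 kb in at least 1 library, the median difference was -1.67 peaks for TetR-MYBTA minus the other 6 libraries and 1 peak for TetR minus the other 6. Numbers at the 3 genes are therefore set beside the same comparison over all genes, and beside lists cut to the 45136 rows of the shortest.

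**Figure D1:**
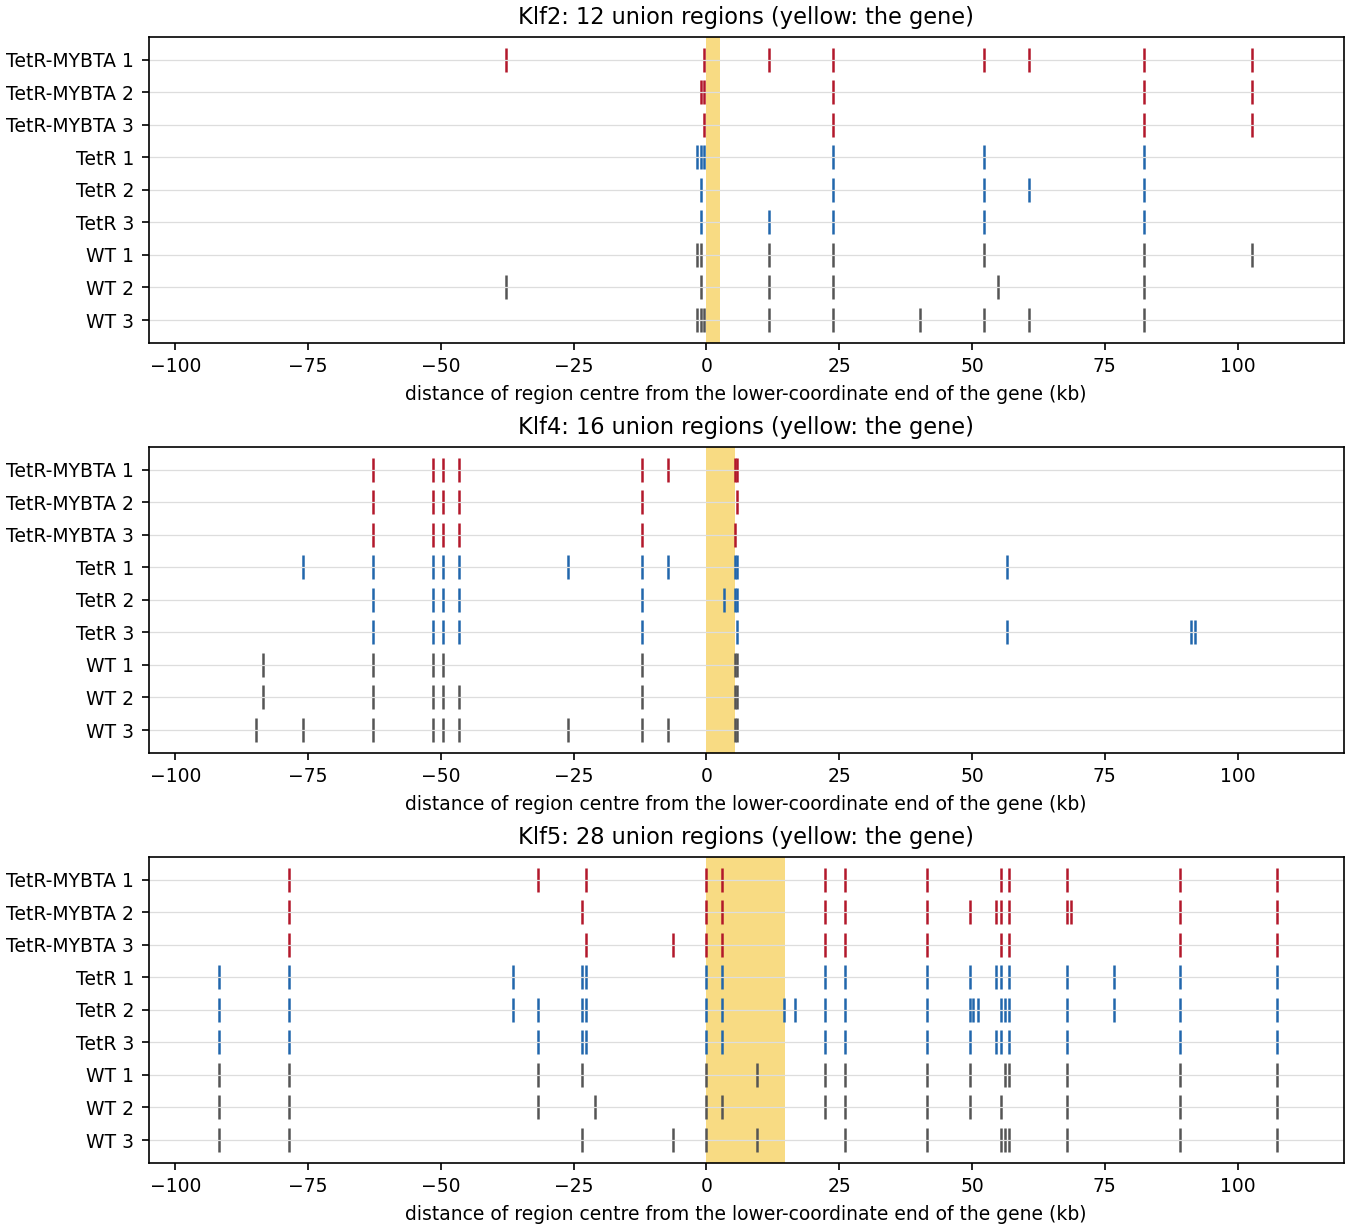
Union regions within 100 kb of Klf2, Klf4 and Klf5, by library (rows) and by distance in kb of the region's centre from the gene's lower-coordinate end; a tick is a region with a peak in that library, and regions under 1 kb apart may run together. The 12 regions found in every library form unbroken columns, and the column left of Klf5 at 91.7 kb is empty in the 3 TetR-MYBTA rows.

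Regions at the 3 loci were compared between lines by presence in each library. Of the 56 regions, 12 (21.4%) had a peak in all 9 libraries, against 22.4% of regions genome-wide, and 12 (21.4%) had a peak in 1 library only, against 26% genome-wide. Klf2 had 2 constant regions of 12, Klf4 4 of 16 and Klf5 6 of 28. A call between lines was made where all 3 libraries of a line had a peak and none of the line or lines set against it did, or the reverse. By this rule 3 of the 56 regions were called in at least 1 of the 12 possible calls, beside 9.43% of all regions. The number is too small to set against that share. Klf4 had none of the 3. Regions with a peak in each line at least once made up 7 of 12 at Klf2, 8 of 16 at Klf4 and 14 of 28 at Klf5, and 45.1% genome-wide.

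Klf4, on chromosome 4 from 55527137 to 55532475, had its open sites at the start of the gene and in a row of downstream sites. In the stretch 45 to 75 kb from the gene, where the known distal enhancers lie, 4 regions had a peak in at least 5 libraries, all on the downstream side. They lay at chr4:55464299-55464541, chr4:55475445-55475770, chr4:55477349-55477781 and chr4:55480422-55480732, with centres 68.1, 56.9, 54.9 and 51.9 kb from the gene start. The first 3 had a peak in all 9 libraries. The last had a peak in 3 TetR-MYBTA, 3 TetR and 2 WT libraries, and WT replicate 1, which lacked it, had its nearest peak 2869 bp away in the neighbouring region. No protein-coding gene of the annotation other than Klf4 reaches within 100 kb. The enhancer stretch was thus open in all 3 lines by this measure, and presence did not separate them.

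A further Klf4 region, 12 kb downstream at chr4:55514847-55515089, also had a peak in all 9 libraries. At the gene start, the region chr4:55532396-55532636 shared 211 bp with the promoter window printed above. It had a peak in 2 TetR-MYBTA, 2 TetR and 3 WT libraries. It also shared 177 bp with the promoter window of Gm12506, which starts on the other strand, and ATAC-seq carries no strand to tell them apart. A second region 399 bp upstream of the gene, chr4:55532874-55533111, had a peak in 2 TetR-MYBTA, 3 TetR and 3 WT libraries. Every library had at least 1 of this pair: TetR-MYBTA replicate 3 lacked the upstream one, and TetR-MYBTA replicate 2 and TetR replicate 3 lacked the one at the start. In these 3 libraries the nearest peak lay 238 to 262 bp from the region that was missing.

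The other Klf4 regions were seen in few libraries. On the upstream side, beyond the gene start, 3 regions at 51.2, 85.8 and 86.5 kb appeared in TetR only, the first in 2 libraries and the others in 1. With 1 more region inside the gene, seen in TetR replicate 2 at 69.6, TetR had 4 regions of its own, WT had 2 and TetR-MYBTA had none. Genome-wide, 14.6% of regions were seen in TetR only, 9.71% in WT only and 10.4% in TetR-MYBTA only. The counts at Klf4 are too small to set against these shares. All 8 regions that TetR-MYBTA showed at Klf4 were also seen in both other lines.

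Klf2, on chromosome 8 from 72319062 to 72321654, had no peak inside the gene and none in the printed promoter window, whose nearest region ended 145 bp before it. The number of libraries with a peak at each of 2 regions upstream of the gene differed between lines. The region nearest to the gene, 395 bp upstream at chr8:72318420-72318667, had a peak in 3 TetR-MYBTA, 1 TetR and 1 WT libraries. The next, 938 bp upstream at chr8:72317861-72318124, had a peak in 1 TetR-MYBTA, 3 TetR and 3 WT libraries. The 4 libraries that lacked the nearer region and the 2 that lacked the farther one all had a peak 296 to 355 bp away, in the other region of the pair. Open chromatin within 1 kb of Klf2 was therefore called in every library. TetR-MYBTA replicate 2, TetR replicate 1 and WT replicate 3 had both regions, as separate peaks, and each remaining library had only 1 of the pair. On a percentile scale that rises toward the first row of the list, the nearer region stood at 56.3, 0.815 and 11.8 in TetR-MYBTA. It stood at 45.6 in TetR replicate 1 and at 45.3 in WT replicate 3. The calls in TetR-MYBTA replicates 2 and 3 thus lay low in their lists. Neither region met the rule for a call between lines, and this pair was singled out after its values were seen.

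Downstream of Klf2 lies Eps15l1, which encodes an EPS15-like endocytic adaptor. The 2 constant regions were both inside it, at chr8:72342715-72343005, 21.1 kb from Klf2, and at chr8:72401298-72401528, 79.6 kb away. The first was among the highest entries of every list, at 97.6 to 99.7 where 100 is the first row of the list. One region there was called between lines. It lay 99.9 kb from Klf2 at chr8:72421601-72421856, sharing 124 bp with the promoter window of Eps15l1 and 73 bp with that of Gm46043 on the other strand. It had a peak in 3 TetR-MYBTA libraries and no TetR library, a call made in 1.4% of all regions, and in 1 WT library. All 5 libraries without it had a peak 37 to 75 bp away, just outside the 100 kb limit. With peaks up to 200 bp apart joined, no Klf2 region was called.

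Klf5, on chromosome 14 from 99298691 to 99313412, had the most open sites of the 3 genes. The region at its lower-coordinate end, 20 bp outside the gene at chr14:99298419-99298671, had a peak in all 9 libraries, and so did those 11.2 kb and 26.7 kb beyond the other end, at chr14:99324636-99324971 and chr14:99340142-99340374. A region inside the gene, chr14:99301519-99301816, had a peak in 3 TetR-MYBTA, 3 TetR and 1 WT libraries. WT replicates 1 and 3 had no peak there, and instead both had one elsewhere in the gene, at chr14:99308176-99308393, seen in no other library. Neither region met the rule for a call between lines. A region across the higher-coordinate end of the gene, chr14:99313192-99313386, was seen in TetR replicate 2 alone.

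The clearest difference at Klf5 was a region 91.7 kb on the lower-coordinate side, chr14:99206756-99207004, inside Pibf1, which encodes a centrosomal protein. It had a peak in 0 of 3 TetR-MYBTA, 3 of 3 TetR and 3 of 3 WT libraries. Regions missing in TetR-MYBTA and present in the other 6 libraries made up 1.16% of all regions. Against TetR alone the share was 4.43%, and against WT alone 2.79%. The nearest peak of the 3 TetR-MYBTA libraries lay 12974 to 12995 bp away, so this absence was not a shift of the called position within 1 kb. In the lists that had it, the region stood at 39.5 to 62.5 in TetR and 66.6 to 75.4 in WT, on the scale where 100 is the first row. These places lie inside the part of each list kept when all were cut to equal length.

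That nearest peak belonged to a constant region, also inside Pibf1, 78.5 kb from Klf5 at chr14:99219978-99220199. Among the 26020 regions with a peak in every library, ranked within each list so that 100 is the first, it stood at 35.5, 8.17 and 9.47 in TetR-MYBTA, at 58.6, 59.1 and 68.6 in TetR and at 19.9, 43.9 and 38.9 in WT. All TetR libraries stood above the other 6, and TetR-MYBTA overlapped WT through replicate 1. The share of constant regions with TetR above all other 6 was not computed, so whether this separation is common is not known. A further call set TetR apart from WT. The region 22.5 kb on the same side, chr14:99275874-99276142, had a peak in 2 TetR-MYBTA, 3 TetR and 0 WT libraries, a call made in 2.26% of all regions. WT replicates 1 and 3 had a peak 443 and 444 bp away, in a neighbouring region, and WT replicate 2 had none within 1 kb.

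**Figure D2:**
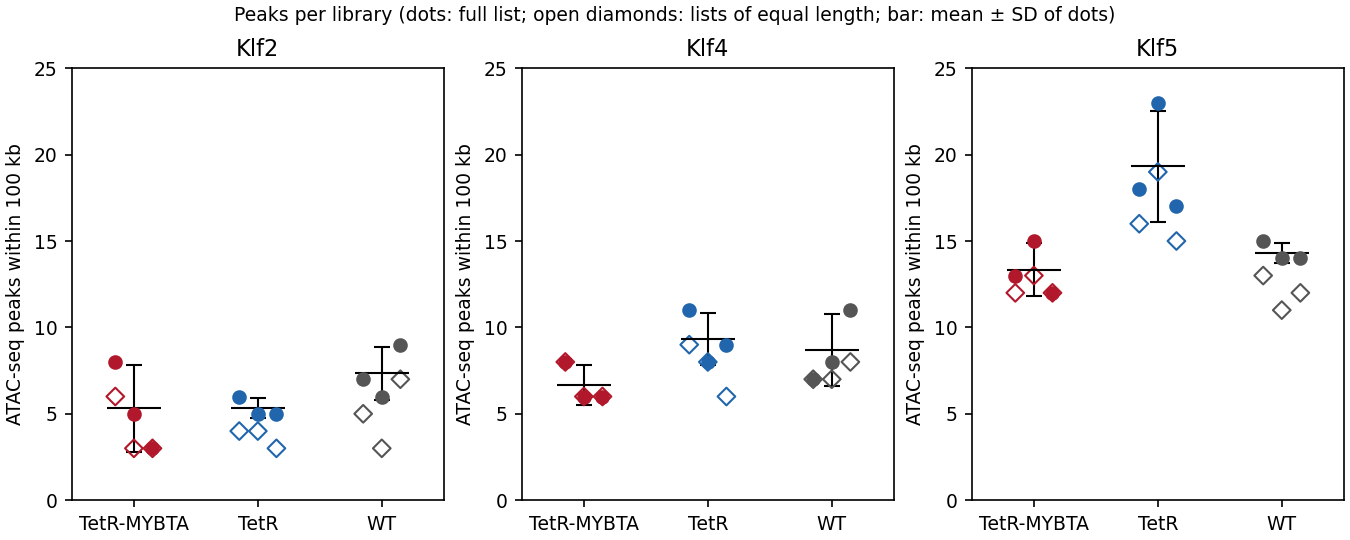
Number of ATAC-seq peaks within 100 kb of Klf2, Klf4 and Klf5 in each library of TetR-MYBTA, TetR and WT (dots, with mean and SD), and in lists of equal length (open diamonds). At Klf5 the TetR libraries have 17 to 23 peaks, above all other 6, and stay above them in lists of equal length.

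The number of peaks within 100 kb was compared next. Klf5 had 13, 15 and 12 peaks in TetR-MYBTA, 18, 23 and 17 in TetR, and 15, 14 and 14 in WT. TetR stood above both other lines, with a mean of 19.3 ± 3.21 peaks, against 13.3 ± 1.53 for TetR-MYBTA and 14.3 ± 0.577 for WT (SD, n = 3 each). The groups did not overlap for TetR against the other 6 libraries, which was compared after seeing the data, with a difference of 5.5 peaks (two-sided exact permutation p = 0.0119, the smallest 3 against 6 can give; adjusted p = 0.208 by Benjamini-Hochberg over all genes). So complete a separation upward was seen at 7.75% of genes, against which the Klf5 value is read. The TetR libraries also had the highest share of their tags in peaks, 9.3 to 9.78%, against 5.48 to 8.09% in the other 6, which lists of equal length do not equalize, and its part in the Klf5 difference was not tested. TetR-MYBTA lay below TetR without overlap, as did 33.4% of genes, and TetR lay above WT, as did 11.1%. Neither of these can go below exact p = 0.1 with 3 against 3 libraries.

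The TetR excess at Klf5 lay mostly 10 to 50 kb from the gene, where TetR had 9, 12 and 9 peaks, TetR-MYBTA 6, 7 and 5, and WT 7, 6 and 6. From 50 to 100 kb the numbers were 6, 6 and 5 in TetR, 4, 5 and 3 in TetR-MYBTA, and 5 in each WT library. TetR was also the line with most regions of its own at Klf5, 6 of 28, but 4 of these were seen in 1 library, each time replicate 2. Without TetR replicate 2 the difference to the other 6 libraries was 3.67 peaks (exact permutation p = 0.0357, the smallest 2 against 6 can give, adjusted p = 0.49). With lists of equal length TetR had 16, 19 and 15 peaks, TetR-MYBTA 12, 13 and 12, and WT 13, 11 and 12. The difference was then 4.5 (exact permutation p = 0.0119, adjusted p = 0.273). In those lists 1968 of 20771 genes had an unadjusted exact permutation p under 0.05 for this comparison, in either direction. The share with TetR above all other 6 was not computed there. As peaks per 10000 of the list the groups overlapped, at 2.56 to 3.49 in TetR, 2.18 to 2.66 in TetR-MYBTA and 2.22 to 2.65 in WT (exact permutation p = 0.0595). Farther out, from 100 kb to 1 Mb, Klf5 had 47 to 59 peaks in TetR, 42 to 56 in TetR-MYBTA and 47 to 56 in WT, so that stretch as a whole did not show the excess. A 250 kb window, which includes the 100 kb one, did. It held 32, 36 and 30 peaks in TetR, 26, 26 and 24 in TetR-MYBTA, and 26, 27 and 25 in WT. The difference of TetR to the other 6 libraries was 7 there (exact permutation p = 0.0119, adjusted p = 0.172). In that window 3480 of 21229 genes had an unadjusted exact permutation p under 0.05 for this comparison, in either direction.

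Klf4 had 8, 6 and 6 peaks within 100 kb in TetR-MYBTA, 11, 8 and 9 in TetR, and 7, 8 and 11 in WT. TetR-MYBTA averaged 6.67 ± 1.15 peaks (SD, n = 3) and the other 6 libraries 9 ± 1.67 (SD, n = 6). The groups overlapped, and the difference of -2.33 peaks did not pass (exact permutation p = 0.0952, adjusted p = 0.227 over all genes). With lists of equal length Klf4 had 8, 6 and 6 peaks in TetR-MYBTA, 9, 8 and 6 in TetR, and 7, 7 and 8 in WT. The difference was then -0.833 (exact permutation p = 0.345), and that of TetR-MYBTA minus TetR was -1 (exact permutation p = 0.7), against -2.67 in the full lists. TetR-MYBTA was below the other 6 libraries without overlap at 18.3% of genes and above them at 1.05%. In a 250 kb window Klf4 had 17, 15 and 11 peaks in TetR-MYBTA against 23, 21 and 18 in TetR and 18, 24 and 21 in WT. There the difference of -6.5 passed (exact permutation p = 0.0119, adjusted p = 0.0454), as did 5569 of the 21229 genes tested. But 31.0% of genes were below without overlap in that window, and with lists of equal length the difference was -1.83 (exact permutation p = 0.286). That last setting was added after the data were seen.

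Klf2 had 8, 5 and 3 peaks in TetR-MYBTA, 6, 5 and 5 in TetR, and 7, 6 and 9 in WT. The TetR-MYBTA libraries alone spanned nearly the whole range of the 9. Their mean was 5.33 ± 2.52, beside 5.33 ± 0.577 for TetR, and WT averaged 7.33 ± 1.53 (SD, n = 3 each). TetR-MYBTA minus the other 6 libraries gave -1 peak (exact permutation p = 0.595, adjusted p = 0.752), and without TetR-MYBTA replicate 3 the sign turned, to 0.167. For TetR-MYBTA against WT none of the 3 genes separated, beside 26.9% of all genes with TetR-MYBTA below.

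**Figure D3:**
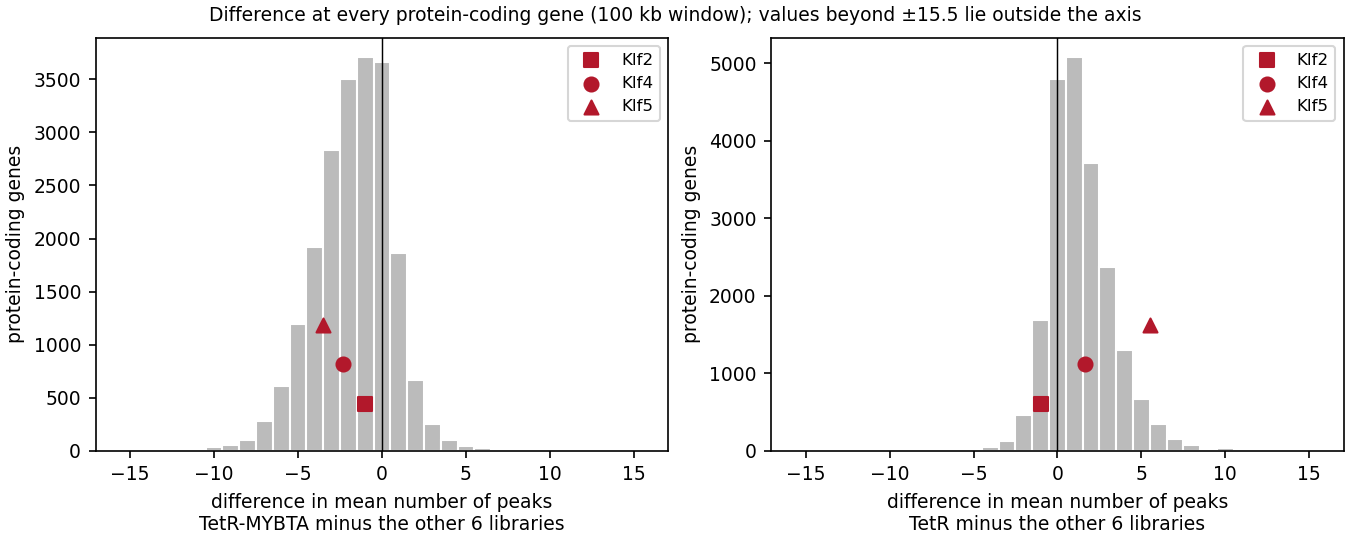
Number of protein-coding genes (vertical axis) by the difference in mean number of peaks within 100 kb, for TetR-MYBTA minus the other 6 libraries (left) and TetR minus the other 6 (right), with Klf2, Klf4 and Klf5 marked at their values; the height of a mark has no meaning. Klf5 lies in the upper tail on the right, at 5.5 peaks, and all 3 genes lie on the negative side on the left, where the median of all genes is -1.67.

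Since the lists give no peak height, the place of a region in the list was used as a stand-in for strength. This rests on the assumption that the row order is HOMER's ranking, which is not stated with the data. Some regions near each other shared a place within a library. The Klf5 regions 74.2 and 92.6 kb away, for example, both stood at 52.3 of the full list in TetR-MYBTA replicate 1. How many rows tie in strength was not examined, so small differences in place may carry no meaning. Row order and HOMER's peak number had rank correlations of at least 0.9915 within chromosomes 4, 8 and 14, and over the 26020 regions of all 9 libraries the places of any pair of libraries had rank correlations of 0.703 to 0.918. Ranked among those regions, the Klf4 region 62.6 kb downstream stood at 80.4, 81.1 and 81.3 in TetR-MYBTA, at 88.7, 84.5 and 88.0 in TetR and at 92.5, 91.7 and 91.1 in WT. The groups did not overlap, and TetR-MYBTA was lowest. For the other 3 constant Klf4 regions the means were also lowest in TetR-MYBTA, but the libraries overlapped. At 51.4 kb they were 64.8 ± 8.34 in TetR-MYBTA (SD, n = 3 here and for the values that follow), against 74.4 ± 4.23 in TetR, with 78.0 ± 3.82 in WT. At 49.4 kb they were 76.4 ± 3.05 in TetR-MYBTA, 77.0 ± 0.998 in TetR, with 82.9 ± 1.07 in WT, and at 12 kb they were 79.6 ± 5.06 in TetR-MYBTA, against 85.4 ± 2.53 in TetR, with 88.5 ± 5.01 in WT.

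Among all constant regions, 8.92% stood lower in every TetR-MYBTA library than in any other and 11.7% stood higher. At the 3 loci 2 of 12 stood lower and 1 higher, numbers too small to set against those shares. The second lower one was the Klf5 end region, at 97.9, 97.7 and 97.8 in TetR-MYBTA against 99.0 to 99.7 in the other 6 libraries, which is near the top of the list in every library. The higher one lay 92.6 kb beyond Klf5, chr14:99405986-99406258. It stood at 19.7, 12.9 and 27.5 in TetR-MYBTA, 5.35, 4.85 and 6.99 in TetR, and 0.473, 0.746 and 8.36 in WT. These places are low among the constant regions in all lines. In the full lists the region stood at 52.3, 42.3 and 47.4 in TetR-MYBTA and 37.5, 31.0 and 29.6 in TetR. In the WT lists it stood at 4.52, 11.6 and 37.1. From 100 kb to 1 Mb around Klf4, 4 of 14 constant regions stood lower in TetR-MYBTA and 0 higher. On chromosome 4 as a whole 7.73% stood lower and 8.83% higher. The same stretch had 5 of 44 lower and 0 higher around Klf2, and 2 lower and 2 higher of 28 around Klf5. The 4 of 14 is likewise too small a number to set against a share. Chromosome 4 also held a larger share of the WT lists, at 5.76 to 5.87% of peaks in TetR-MYBTA, 5.81 to 5.88% in TetR and 6.19 to 6.28% in WT, and WT had the highest mean place at all 4 constant Klf4 regions. The part of the wider stretch and of the chromosome in the places of the Klf4 regions was not tested. Chromosome 14 held 4.01 to 4.12% in TetR-MYBTA, 3.94 to 4.08% in TetR and 3.87 to 3.92% in WT, and chromosome 8 5 to 5.09% in TetR-MYBTA, 5.14 to 5.19% in TetR and 5.06 to 5.13% in WT.

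**Figure D4:**
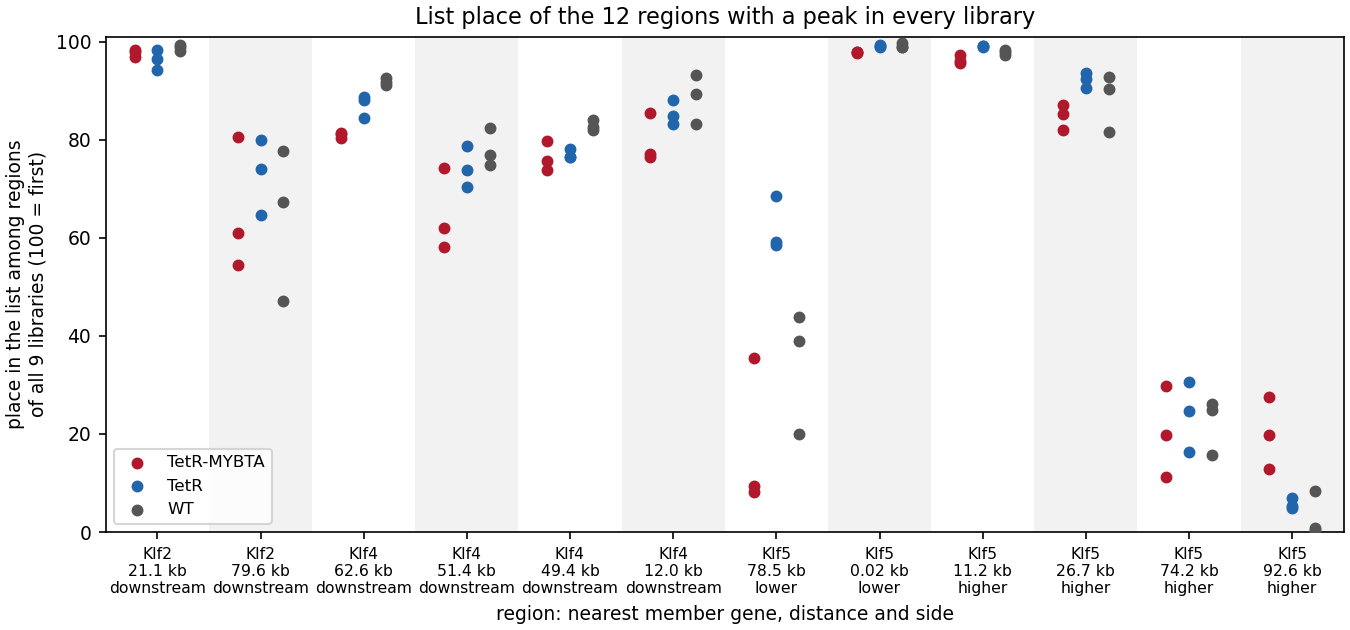
Place in the list (vertical axis, 100 is the first) of the 12 regions near Klf2, Klf4 and Klf5 that have a peak in every library, ranked among the 26020 such regions of the genome; each dot is a library. TetR-MYBTA lies below all other libraries at the Klf4 region 62.6 kb downstream and at the Klf5 end region, and above them at the region 92.6 kb beyond Klf5.

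Related genes were described with the same window. Of 23 other Klf and Sp family genes, 1 was below in TetR-MYBTA without overlap and none above, with a median difference to the other 6 libraries of -1.83 peaks, against -1.67 over all genes. That gene was Sp8, a developmental zinc-finger factor, with 9 peaks in each TetR-MYBTA library, against 13, 12 and 12 in TetR and 11, 15 and 14 in WT. The differences ran from -6.67 at Sp7 to 0.667 at Klf6 and Klf13. In TetR, Klf8 on the X chromosome was the family member above all other 6 libraries, with 25, 23 and 21 peaks, against 13, 12 and 12 in TetR-MYBTA and 14, 14 and 12 in WT.

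Of 22 naive pluripotency and LIF pathway genes, 2 were below in TetR-MYBTA without overlap and none above, with a median of -2.42 peaks. Esrrb, a nuclear receptor of the naive network, had 13, 14 and 13 peaks in TetR-MYBTA, against 17, 18 and 19 in TetR and 19, 19 and 22 in WT. Fgf4, a growth factor that promotes exit from the naive state, had 12, 12 and 8, against 15, 15 and 14 in TetR and 18, 15 and 20 in WT. Jak1, the kinase downstream of the LIF receptor, had the lowest difference of the list, -6, with overlapping groups, and Tfcp2l1 the highest, 3.83. Dppa3, a maternal factor gene, and Lifr, which encodes the LIF receptor, were above all other 6 libraries in TetR. These 2 of 22 genes, and Klf8 as 1 of 23, are set beside 7.75% of all genes with TetR above. The 2 of 22 and 1 of 23 genes with TetR-MYBTA below are set beside 18.3% of all genes.

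Among the genes whose number of peaks within 100 kb followed Klf5 most closely over the 9 libraries were Phc3 (Pearson r = 0.980) and Itga10 (0.971), out of 16007 genes searched. Most like Klf4 were Pitpnm2 (0.954), Ppp1r14a (0.942) and Vil1 (0.942), and most like Klf2 were Otud1 (0.959), Wnk4 (0.954) and Cast (0.930). With 9 points that share list length and so many genes searched, values this high are a description of the ranking only.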

How the data were processed

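Per the file headers, HOMER was run on 1 library at a time without a control, at a false discovery rate of 0.001, 4-fold over the local 10 kb, a local Poisson p-value of 0.0001 and a threshold of 11 or 12 tags. The threshold was 12 in TetR-MYBTA replicate 3 and WT replicates 2 and 3, and 11 in every other library, so in all of TetR. Its part in the differences between lines was not tested. The mm10 build, HOMER 4.11, Bowtie2 and Trim Galore 0.6.10 come from the submitters' processing notes, as do Picard, FastQC and deepTools 3.5.5. Whether reads were shifted for the Tn5 offset is not given in the sources used. The score the authors deposited is 1 in every row, and the median peak width was 194 to 209 bp. The lists hold positions and no tag count per peak, so presence or absence was compared, and single peaks carry no interval. The deposited starts count from 0 and are given here from 1. Peaks a short way apart form separate regions, so gaps to the nearest peak are given.

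Union regions joined peaks that overlapped by at least 1 bp. Genes and promoters came from RefSeq tables for GRCm38.p6. No genome sequence was used, so no peak sequence is shown, and the strand of Klf5 is not given in these tables. The number of peaks within 100 kb was tested by exact permutation, two-sided on the absolute difference of means, in every protein-coding gene with a peak, adjusted over all of them by Benjamini-Hochberg, and the tests were checked on simulated counts. Of 20937 genes, 0 passed an adjusted p of 0.05 in the exact permutation tests and 6247 had an unadjusted p under 0.05 for TetR-MYBTA minus the other 6 libraries. No other tool was run. Regions were named if within 1 kb of an end of the 3 genes, if 45 to 75 kb from Klf4 with a peak in at least 5 libraries, or if called between lines, and constant regions were named as well. Listed genes were named where TetR-MYBTA or TetR did not overlap the other 6 libraries, or at the ends of the list's range. Like genes were the 3 with the highest r, a mean of at least 5 peaks and a distance over 1 Mb. One gene that this rule names is not reported here. The members, gene lists and tests were chosen with earlier results of these data known. Computation used scipy 1.17.1, pandas 2.3.3 and numpy 2.4.6 under Python 3.11.15, with matplotlib 3.10.9 for figures.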

Additional observations from a re-analysis of the deposited data

How the results depend on the processing

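By exact permutation test, 0 of 15 differences in number of peaks passed after adjustment, and of their 216 values under alternatives 1 did, Klf4 for TetR-MYBTA minus the other 6 libraries in a 250 kb window (-6.5, exact permutation test, adjusted p = 0.0454). In that window 5569 of 21229 genes passed for this comparison. Differences of 3 against 3 libraries cannot go below exact permutation p = 0.1, so none of those could pass in any setting. Klf4 and Klf5 kept a negative difference for TetR-MYBTA minus the other 6 libraries, and minus TetR, in every setting. But with lists of equal length it was -0.833 and -2 minus the other 6, and -1 and -4.33 minus TetR. In a 250 kb window with lists of equal length, added after the data were seen, it was -1.83 and -0.333 minus the other 6. The last value, at Klf5, had exact permutation p = 0.893. Klf5 kept a positive difference for TetR minus WT and minus the other 6. Some signs turned. In the upper 50% of each list, Klf2 gave 0.5 for TetR-MYBTA minus the other 6, 0.667 for TetR-MYBTA minus WT, 0.333 for TetR minus WT and 0 for TetR minus the other 6, Klf4 gave 0 for TetR minus WT, and Klf5 gave 0.667 for TetR-MYBTA minus WT. Klf5 for TetR-MYBTA minus WT was also 0.0847 as peaks per 10000 of the list, 0.333 with lists of equal length and 0 in a 50 kb window. Klf4 for TetR minus WT was -0.0133 as peaks per 10000 and -0.333 in a 250 kb window, where Klf2 gave 0 for TetR minus WT and 1.5 for TetR minus the other 6. Leaving out 1 library gave -2.33 to 0.167 at Klf2 for TetR-MYBTA minus the other 6 and -0.167 to 1.83 at Klf4 for TetR minus WT, with the sign turned without TetR-MYBTA replicate 3 in the first and without TetR replicate 1 or WT replicate 1 in the second. The causes were not tested.

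Counts of called regions (1 at Klf2, 0 at Klf4, 2 at Klf5) are small and moved easily. With at least 2 of 3 libraries as the rule they were 6, 2 and 11, a looser rule by construction. Lists of equal length gave 2 at Klf2, joining peaks up to 200 bp apart gave 0 there, a 50 kb window gave 0 at Klf2 and 1 at Klf5, and asking that the absent libraries have no peak within 1 kb, a setting added after the data were seen, gave 0 and 1. Leaving out 1 library gave 1 to 3 at Klf2, 0 to 1 at Klf4 and 2 to 5 at Klf5. Libraries of the same replicate number did not deviate together (correlations of -0.006 to 0.007 over 9 pairs), and those of unlike number gave -0.011 to 0.009 over 18 pairs. These values show no pairing by number and cannot exclude one. With the replicate block, Klf5 for TetR minus the other 6 had exact permutation p = 0.037, the smallest the block gives for 3 against 6, and adjusted p = 0.389. For 3 against 3 libraries the block cannot go below exact permutation p = 0.25. No call could change there, and none did for 3 against 6. With 3 libraries a line and no peak heights, differences in strength at a site open in all lines could not be measured beyond its place in the list.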
